A study of Mus musculus with 6 samples.

Results

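The transcripts described here encode transcription regulators of meiosis and of the haploid programme in the mouse testis: CREM and its coactivator FHL5, the germ-cell forms of general factors GTF2A1L and TBPL1, the RFX factors RFX2 and RFX3, SOX30 and SOX5, and the meiotic activators TCFL5 and MYBL1. Members were the contigs, that is the reference transcripts to which reads were aligned, whose mouse gene symbol was on this list of 10 genes. Reads were found for 9 of the 10 genes, on 18 of 12114 contigs, and they numbered 6078 of 1968636 reads. Rfx3 had no contig among those analysed here, and 1 further Sox5 contig held 0 reads in every sample. Of the 18 contigs, 17 had at least 10 reads in at least 2 samples of a cell type and are named below, and the other was a second Tcfl5 transcript with 10 reads in all.

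Native poly(A) RNA was read on nanopores, so that each read gave a transcript and the length of its poly(A) tail, in P/D spermatocytes (germ cells sorted as pachytene and diplotene spermatocytes) and in RS (round spermatids), with 3 samples of each. All samples came from testes of wild-type C57BL/6J/B6 males of 8 to 12 weeks, without treatment, and each sample pooled the mRNA of 3 mice. The cells were sorted by Hoechst and propidium iodide staining and scatter, and the study describes the P/D gate as enriched for these spermatocytes rather than pure. In its counts by microscopy, the named cells made up a smaller share of the P/D gate than of the RS gate. Values given below for P/D spermatocytes are those of this sorted gate, other cells included. The 3 P/D samples were multiplexed in a library of their own and the 3 RS samples in another, so a difference between libraries cannot be told apart from a difference between cell types in any result below.

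In male meiosis the transcription of spermatid genes begins before the divisions, and transcription stops once the nucleus of the spermatid condenses, so that many mRNAs are stored and translated later. CREM binds cAMP response elements of spermatid genes with FHL5 as its coactivator, MYBL1 drives genes of pachytene spermatocytes and precursors of piRNAs, and RFX2 with RFX3 drives genes of the flagellum. Poly(A) tails take part in this storage, since tail length is tied to the stability and the translation of an mRNA.

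Each sample held between 244004 and 474688 reads, of which the regulators made up 0.256% to 0.284% in the P/D samples and 0.327% to 0.341% in RS. The labelled cell types were checked with marker genes. All 7 P/D markers tested were lower in RS, and 7 of 8 RS markers were higher there, with 1 not called. Summed reads of the RS markers made up 0.0733% to 0.0912% of P/D samples and 0.253% to 0.279% of RS samples, and those of the P/D markers 0.204% to 0.219% and 0.0185% to 0.0263%. Markers of elongating spermatids took 0.163% to 0.216% of P/D reads and 2.09% to 2.58% of RS reads. Of 6 spermatogonial markers 5 had 0 reads and the other had 0 to 5 reads a sample, Sertoli markers had 0 or 1 read, Leydig markers 1 to 7 reads, and the 4 macrophage markers had 0 reads. In these bulk samples, fewer cells of a type and less RNA per cell cannot be told apart.

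The tails measured here follow the 3′ ends of the transcripts, so the annotated ends are shown for several of the isoforms that carry the results, as 30 bases of GRCm38 from the GENCODE transcript, 5′ to 3′ on the transcript's strand. The stretch of Sox5-201 stops 6 bases before its annotated end, so that its poly(A) signal is in view, and the others run to the end. Capitals mark the poly(A) signal AATAAA nearest the end, searched on the transcript strand within the last 50 bases. The 2 Tbpl1 transcripts end 1502 bases apart, each behind a signal of its own, and the short and long Sox5 transcripts end 4410 bases apart.

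Gtf2a1l-201 (chr17:88715123-88715152, + strand): gaattaAATAAAagtatagttcaaatgcaa
Tbpl1-201 (chr10:22705381-22705410, - strand): taaattgaatgtgcacaAATAAAagtttgg
Tbpl1-202 (chr10:22703879-22703908, - strand): tataAATAAAaactgtgaatatatacatcc
Sox30-201 (chr11:46017965-46017994, + strand): tgttgttgtaactaAATAAAcagatgaaaa
Sox5-204 (chr6:143832835-143832864, - strand): tgtgttatgttgttctgtgctacaattttt
Sox5-201 (chr6:143828431-143828460, - strand): caccAATAAAacagcaaatgtgttctttat
Tcfl5-201 (chr2:180621956-180621985, - strand): atgtgtAATAAActgtatgtttggaacaaa

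This poly(A) signal lay within the last 50 bases of 8 of the 17 named transcripts and of 63.3% of the 6901 tested transcripts found in GENCODE. It was not in that window for any of the 3 Crem transcripts, either Fhl5 transcript, either Rfx2 transcript, Sox5-204 or Sox5-205.

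The start regions of Fhl5 and Sox5, the regulators with the largest fold rise, are shown as 300 bases from RefSeq (GRCm38.p6), running from 250 bases before to 50 bases after the annotated start. The Sox5 window is that of the short transcript, which begins inside the gene, 262374 bases downstream of the start of Sox5-201. Capitals mark AACAAT, the core letters bound by SOX factors, and GTTGCC, a partial site of RFX factors, or their complements.

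Fhl5 (chr4:25242803-25243102, - strand): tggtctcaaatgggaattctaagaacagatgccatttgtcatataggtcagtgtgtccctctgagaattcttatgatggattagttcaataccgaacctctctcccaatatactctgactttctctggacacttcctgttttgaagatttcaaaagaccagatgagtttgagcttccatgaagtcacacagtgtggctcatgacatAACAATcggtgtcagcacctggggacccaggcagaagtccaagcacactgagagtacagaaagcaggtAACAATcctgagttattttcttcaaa
Sox5 (chr6:143947057-143947356, - strand): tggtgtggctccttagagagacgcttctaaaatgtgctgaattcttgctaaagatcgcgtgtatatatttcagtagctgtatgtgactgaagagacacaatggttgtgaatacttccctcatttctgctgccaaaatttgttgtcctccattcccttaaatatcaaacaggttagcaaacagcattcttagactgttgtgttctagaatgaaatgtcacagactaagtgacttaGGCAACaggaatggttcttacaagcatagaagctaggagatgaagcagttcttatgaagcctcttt

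Across both strands, AACAAT was in 1 of the 9 windows searched for the regulators and in 10.7% of all 32851 windows, and GTTGCC in 4 of 9 and in 12.5%. The 9 windows belonged to 8 of the 10 genes, with 2 of Fhl5 and 1 of Rfx3 among them and none searched for Crem or Mybl1. The cAMP response element core TGACG was in 1 of 9, that of Rfx2, and in 20.8% of all windows, and the full site TGACGTCA in 0 of 9 and in 1.79%. MYB letters AACNG were in 9 of 9 and in 80.3%, and the E-box CACGTG in 0 of 9 and in 7.15%. These matches describe letters in the windows and no binding was measured.

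Accumulation of the regulators differed in both directions between the cell types. On read counts summed per gene, 6 of the 9 were higher in RS, 2 were lower and 1 was not called (edgeR quasi-likelihood test, adjusted p under 0.05 over 4894 genes). Of all genes tested, 34.8% were higher in RS and 31.2% lower. Fhl5 and Sox5 passed the filter on low counts through RS alone and Mybl1 through P/D spermatocytes alone, in each case where the gene was high. With upper-quartile in place of TMM scaling the median log2 fold change of all genes moved from 0.01 to -0.27, and the calls from 1701 higher and 1526 lower to 1415 higher and 2029 lower. The median log2 fold change of the regulators was 0.49. For amounts and for mean tails, the share of all genes whose samples do not overlap between the cell types was not counted. Levels below are CPM, that is reads of the gene scaled to the library, after TMM scaling, and folds are RS over P/D spermatocytes from the same fit.

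**Figure D1:**
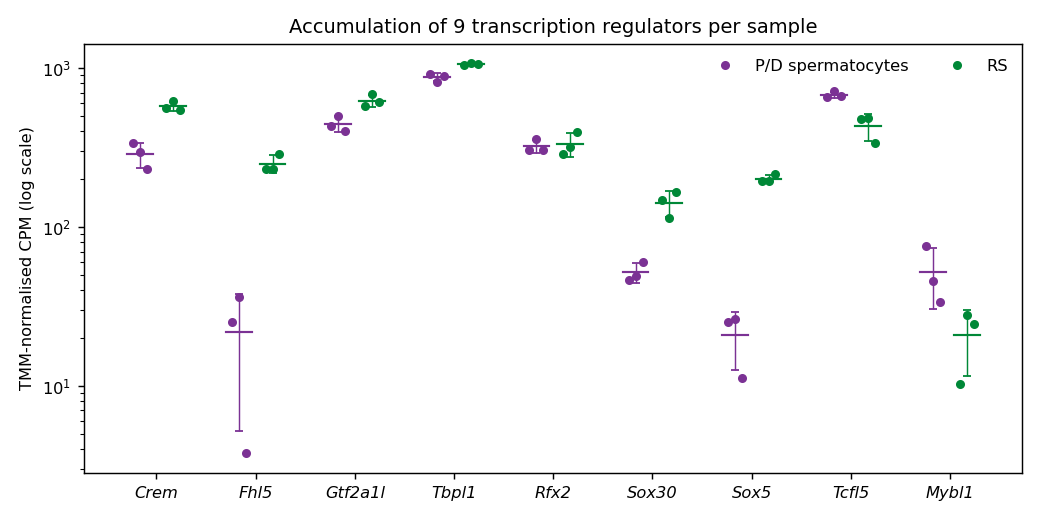
Accumulation of the 9 regulators in each sample, in TMM-normalised CPM on a log axis, with P/D spermatocytes in purple and RS in green. Points are the 3 samples of a cell type, horizontal lines their mean and bars the SD. All RS points lie above all P/D points for Crem, Fhl5, Gtf2a1l, Tbpl1, Sox30 and Sox5. They lie below them for Tcfl5 and Mybl1, and among them for Rfx2. The share of all genes separated in this way was not counted.

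Tails differed mostly in the direction of the whole transcriptome. On the mean tail of a gene's reads in each sample, 6 of the 9 were longer in RS, 0 were shorter and 3 were not called (limma, adjusted p under 0.05 over 5320 genes), while 54.9% of all genes were longer and 2.09% shorter. At an unadjusted p under 0.05 limma also called 0 of the 9 shorter (2.78% of all genes), as did the equal-variance test. The median difference was 30.4 nt over the regulators and 34.9 nt over all genes tested. The median over genes of the mean tail was 115 nt for P/D samples and 157 nt for RS. Whether a gene moved more or less than other genes was tested after subtracting each sample's median over genes: 3 regulators, Fhl5, Mybl1 and Tcfl5, moved less and 0 moved more, against 23.4% and 14.0% of all genes. Fhl5 and Sox5 entered the tail tests through their RS reads alone and Mybl1 through its P/D reads alone, so for these 3 the other cell type had few reads. At an unadjusted p under 0.05 limma had 4 moving less (Fhl5, Sox5, Tcfl5 and Mybl1) and 2 moving more (Gtf2a1l and Rfx2), against 30.3% and 19.3% of all genes. These splits depend on the centre. With the mean over genes as the centre, 1266 genes moved more and 886 less, in place of 747 and 1243, and among the regulators 2 moved more (Gtf2a1l and Rfx2) and 2 less (Fhl5 and Mybl1). With the median over reads, 96 moved more and 2699 less, and 7 of the 9 regulators moved less.

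**Figure D2:**
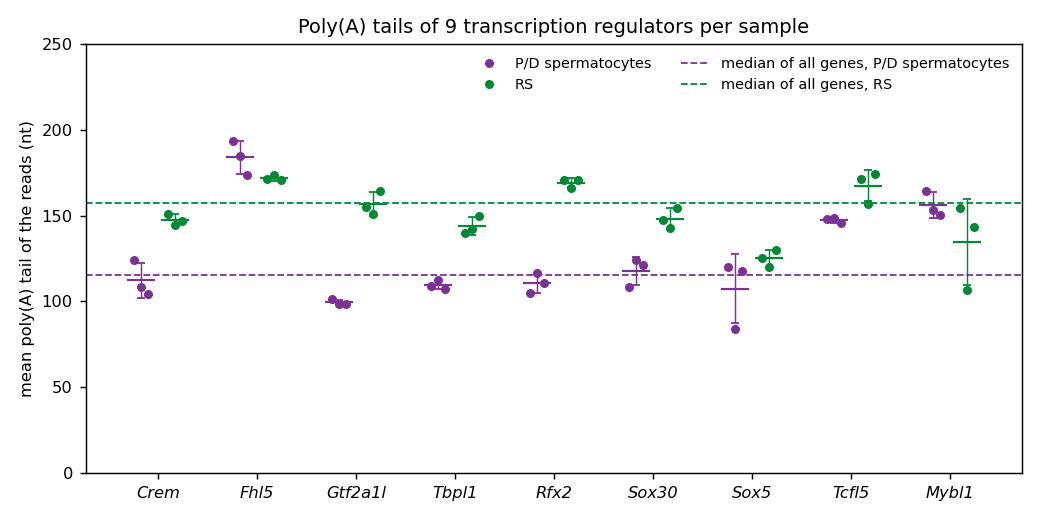
Mean poly(A) tail in nt of the reads of each regulator in each sample, with P/D spermatocytes in purple and RS in green; points are samples, horizontal lines their mean and bars the SD. Dashed lines are the medians over all genes, 115 nt in the P/D samples and 157 nt in RS. In the P/D samples, Fhl5, Tcfl5 and Mybl1 lie well above the P/D line, Fhl5 on 18 reads.

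Crem, the cAMP-responsive activator of spermatid genes, rose 2.01-fold in RS and its tails lengthened. It measured 336, 295 and 233 CPM in P/D samples 1 to 3 and 564, 616 and 543 CPM in RS samples 1 to 3, so every RS sample lay above every P/D sample. The log2 fold change was 1.01 ± 0.14 (SE, adjusted p = 3.85e-08). Its mean tails were 124, 109 and 104 nt in the P/D samples and 151, 145 and 147 nt in RS, again without overlap. The difference was 35.2 ± 6.67 nt (SE, adjusted p = 0.00483), close to the 34.9 nt of the median gene. Of the Crem reads, 33.9% ± 6.11 had tails of 120 to 210 nt before the divisions, in P/D spermatocytes, against 63.0% ± 1.11 afterwards, in RS (SD, n = 3).

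The rise of Crem was uneven over its 3 transcripts, all on the minus strand of chromosome 18. Crem-204 (ENSMUST00000122958, 3266356 to 3299559) and Crem-228 (ENSMUST00000150235, 3266354 to 3337679) start 38120 bases apart and end 2 bases apart. Crem-222 (ENSMUST00000144496, 3267588 to 3309858) is annotated to end 1232 bases earlier. Nanopore reads start at the 3′ end and may stop short of the 5′ end, so the split of reads between transcripts that share a 3′ end is uncertain.

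Crem-204 held 62.5%, 58.9% and 67.7% of the Crem reads in P/D samples and 42.4%, 46.1% and 42.9% in RS samples. Crem-228 held 32.5%, 37.8% and 32.3% and then 48.5%, 41.2% and 40.7%. Crem-222 held 5%, 3.33% and 0% and then 9.09%, 12.7% and 16.4%. All 3 shares were free of overlap between the cell types, downward for Crem-204 and upward for Crem-228 and Crem-222. The shares of a sample add up to the whole, so they are not separate results. How often this occurs over all transcripts was not counted. Usage of Crem-204 and Crem-228 was not called (edgeR diffSpliceDGE, adjusted p = 0.138 and 0.550). Crem was the only one of 5 regulators tested for isoform usage to be called (edgeR diffSpliceDGE gene test, adjusted p = 0.000391), where 20.2% of 1054 genes were called. The call fell on Crem-222, whose log2 change relative to the gene was 2.04 (adjusted p = 0.00321), and it rested on 7 P/D reads and 78 RS reads. Crem-222 passed the filter on low counts through RS alone, where it was high, which also holds for its fold below. In counts, Crem-222 rose 7.89-fold, Crem-228 2.42-fold and Crem-204 1.36-fold (adjusted p = 6.38e-07, 6.13e-07 and 0.0283, edgeR). The Crem-204 call was lost with DESeq2, with upper-quartile scaling, without the count filter, and without P/D sample 2, P/D sample 3 or RS sample 2, with adjusted p up to 0.134.

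**Figure D3:**
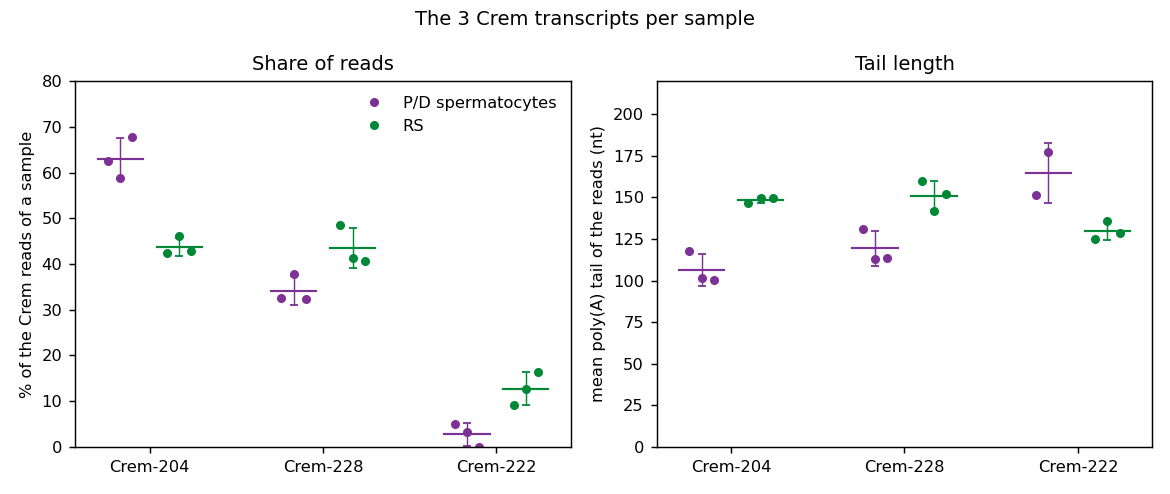
The 3 Crem transcripts in each sample, with P/D spermatocytes in purple and RS in green: the share of a sample's Crem reads in percent (left) and the mean poly(A) tail in nt (right). Points are samples, horizontal lines their mean and bars the SD; Crem-222 goes from 2.78% to 12.7% of reads on average, and its P/D tails come from 4 and 3 reads in samples 1 and 2, with 0 reads in sample 3.

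Tails of Crem-204 lengthened by 41.9 nt and those of Crem-228 by 31.8 nt (adjusted p = 0.00284 and 0.0164, limma), and the Crem-228 call was lost without RS sample 1 (27.6 nt, adjusted p = 0.0564). Crem-222 entered the tail test through its RS reads alone, and only 7 P/D reads stood against them. Its mean tails were 152 and 178 nt in P/D samples 1 and 2, on 4 and 3 reads, and 125, 136 and 129 nt in RS. The difference was -34.8 nt and was called (adjusted p = 0.0346). Blocking on the replicate number gave an adjusted p of 0.0682, and the call was also lost with weights by reads (adjusted p = 0.185), with the adjusted equal-variance test and without any 1 RS sample. A test of unequal tail change among isoforms called Crem (limma diffSplice gene test, adjusted p = 0.0103) and 0 of the other 3 regulators with tails for at least 2 isoforms, where 2.04% of 1325 genes were called. At an unadjusted p under 0.05, limma diffSplice called 1 of those 3, Rfx2, without correction over genes, and 12.1% of all genes. The tail change of Crem-222 differed from that of the other Crem transcripts by -71.7 nt (adjusted p = 0.00742, and 0.0723 with the replicate block), and this call was lost without RS sample 1 or 3 (adjusted p = 0.0797 and 0.0832), when 0 of all genes were called. It could not be tested without P/D sample 1 or 2, when a P/D mean of 1 sample was left.

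Fhl5, known as ACT, activates transcription through CREM and is made in spermatids. Its reads rose from 6, 11 and 1 in the P/D samples to 68, 100 and 94 in the RS samples, or from 25.2, 36.0 and 3.75 CPM to 232, 231 and 288 CPM. Every RS sample lay far above every P/D sample. The log2 fold change was 3.47 ± 0.30 (SE, adjusted p = 2.09e-13), a fold of 11.1. Beside it, the median log2 fold change of the RS markers was 3.54, and RS and elongating markers were measured in P/D samples as given above. Their part in the P/D values of Fhl5 was not tested.

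The few P/D reads of Fhl5 already had long tails, and the part of spermatid RNA among them was not tested. Mean tails were 193, 185 and 174 nt in the P/D samples and 171, 173 and 170 nt in RS, so RS lay slightly below P/D. The difference was -12.2 ± 6.40 nt and was not called (adjusted p = 0.154). Without P/D sample 3, which held 1 read, it was -17.3 nt (adjusted p = 0.0450). The P/D tail of Fhl5 was longer than that of 97.3% of all genes. Relative to all genes the difference was -55.2 ± 6.15 nt (adjusted p = 0.00432). Fhl5 entered this test through RS alone, and the measure rested on 18 P/D reads, 1 of them in sample 3, whose quartiles were 162, 182 and 212 nt, and 262 RS reads, whose quartiles were 156, 175 and 196 nt.

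Both Fhl5 transcripts lie on the minus strand of chromosome 4, from 25199908 to 25242876, share both ends, and encode the same length of protein. Fhl5-202 (ENSMUST00000108204) has an extra exon, absent from Fhl5-201 (ENSMUST00000029922). In RS, Fhl5-201 held 67.6%, 73.0% and 76.6% of the reads. The 2 transcripts rose 9.93-fold and 12.2-fold for Fhl5-201 and Fhl5-202, and isoform usage was not called (adjusted p = 0.858). Fhl5-202 had P/D reads in 1 sample only, so its tail change was not tested.

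Gtf2a1l, known as ALF, is the germ-cell counterpart of the large subunit of the general factor TFIIA. It lies on the plus strand of chromosome 17, from 88668660 to 88715152, as 1 transcript (ENSMUST00000024970). It measured 432, 501 and 401 CPM in the P/D samples and 574, 685.5 and 613 CPM in RS. The groups did not overlap, with a log2 fold change of 0.49 ± 0.13 (SE, adjusted p = 0.000749). With upper-quartile scaling it was 0.22 (adjusted p = 0.126).

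The tail difference of Gtf2a1l was the second largest of the regulators. Mean tails were 101, 98.4 and 98.5 nt in the P/D samples and 155, 151 and 165 nt in RS. The difference was 57.5 ± 5.57 nt (SE, adjusted p = 0.000362), with 363 P/D and 665 RS reads. In P/D spermatocytes 69.3% ± 5.56 of its reads had tails of 30 to 120 nt and 20.9% ± 3.58 tails of 120 to 210 nt. In RS the shares were 22.0% ± 3.25 and 68.2% ± 2.46 (SD, n = 3). The lower and upper quartiles were 56.5 and 126 nt over the P/D reads and 124 and 184 nt over the RS reads.

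Tbpl1, known as TRF2 or TLF, is a relative of the TATA-binding protein that spermatids need. It measured 923, 822 and 889 CPM in the P/D samples and 1052, 1069 and 1055 CPM in RS. The groups did not overlap, yet the log2 fold change was only 0.27 ± 0.10 (SE, adjusted p = 0.0164). The call was lost with upper-quartile scaling, where the value was -0.0018 (adjusted p = 0.989), and without the count filter, without P/D sample 2, without RS sample 3 and on the main transcript alone, with values of 0.21 to 0.26.

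Its tails were 109, 113 and 107 nt in the P/D samples and 140, 142 and 150 nt in RS. The difference was 34.2 ± 5.20 nt (SE, adjusted p = 0.00193), and every RS sample lay above every P/D sample. Tbpl1-201 (ENSMUST00000095794, minus strand of chromosome 10, 22705381 to 22731938) and Tbpl1-202 (ENSMUST00000127698, 22703879 to 22731447) have different first exons and the different 3′ ends printed above, and the same 558 coding bases. Tbpl1-202, with the longer 3′ UTR, held 21.4%, 29.9% and 27.0% of the Tbpl1 reads in P/D samples. It held 29.2%, 30.9% and 30.5% in RS samples, which overlapped the P/D shares, and isoform usage was not called (adjusted p = 0.365). In counts, Tbpl1-201 was not called (0.13 in log2, adjusted p = 0.355, edgeR) and Tbpl1-202 was called higher (0.42, adjusted p = 0.0200). That call was lost with DESeq2, with upper-quartile scaling, without the count filter and without P/D sample 1. Tails of the 2 transcripts lengthened by 34.5 and 35.3 nt (adjusted p = 0.00380 and 0.0160), and the call of Tbpl1-202 was lost without RS sample 3 (adjusted p = 0.0505). Within samples their tails differed by -1.19 ± 17.9 nt in the P/D samples and -0.37 ± 5.31 nt in RS (Tbpl1-202 minus Tbpl1-201, SD, n = 3), and unequal change was not called (adjusted p = 0.988).

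**Figure D4:**
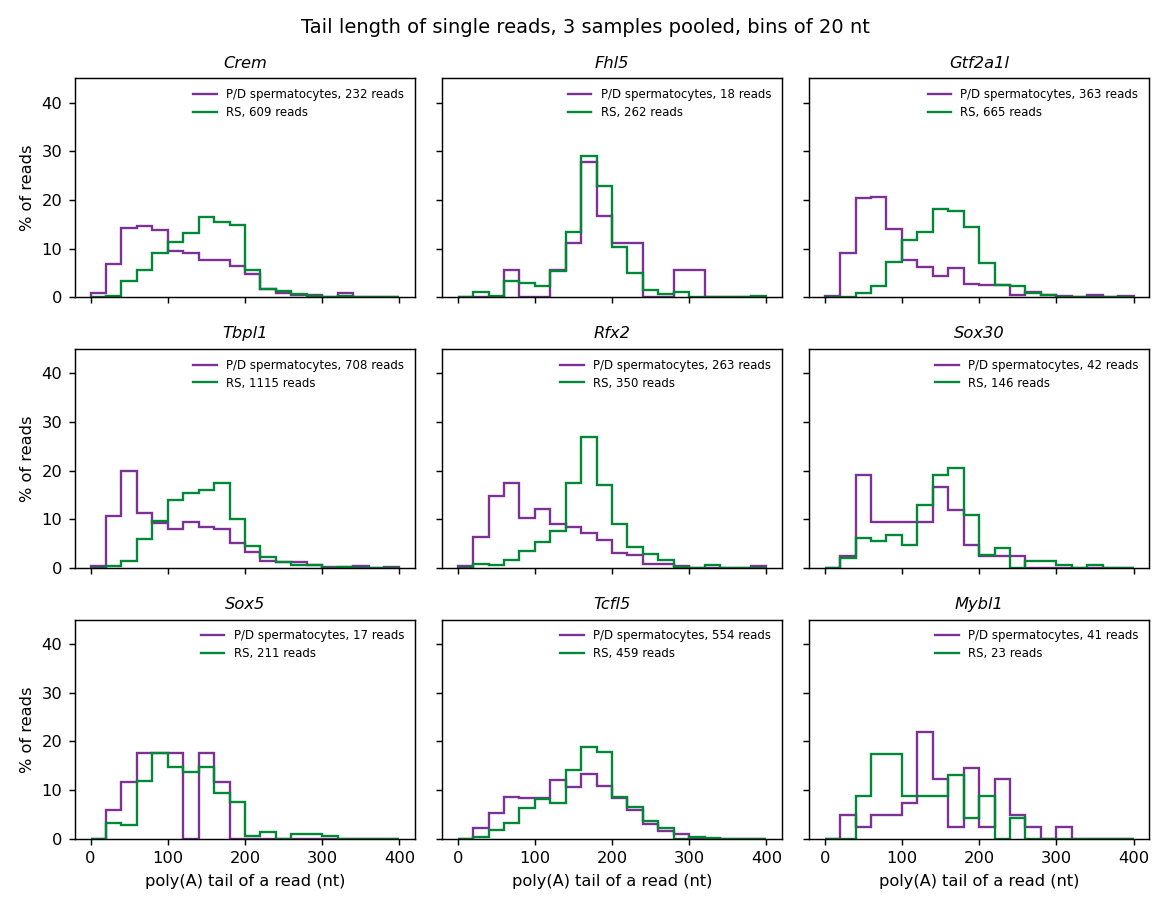
Distribution of the poly(A) tail of single reads for each regulator, in percent of reads per bin of 20 nt, with the 3 samples pooled, P/D spermatocytes in purple and RS in green; reads of 400 nt or more are counted in the last bin. Gtf2a1l, Tbpl1 and Rfx2 peak at short tails in the P/D samples and at 140 to 180 nt in RS, while Fhl5 peaks at 160 nt in both, on 18 and 262 reads.

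Rfx2, a winged-helix factor that drives genes of the flagellum, changed in tails and not measurably in amount. It measured 306, 357 and 304 CPM in the P/D samples and 287, 316 and 396 CPM in RS, which overlapped. Its log2 fold change was 0.04 ± 0.15 (SE, adjusted p = 0.829). Rfx2 was the only regulator with no call in accumulation.

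Mean tails of Rfx2 were 105, 116 and 111 nt in the P/D samples and 171, 166 and 171 nt in RS. The difference of 58.6 ± 5.29 nt (SE, adjusted p = 0.000306) was the largest among the regulators, and 77.0% of all genes had a smaller one. Reads with tails of 30 to 120 nt went from 61.1% ± 2.17 to 11.2% ± 4.80 (SD, n = 3). Relative to all genes the change was 15.7 nt (adjusted p = 0.0770), and with the mean over genes as the centre 25.4 nt (adjusted p = 0.0162), while with the median over reads it was -7.19 nt (adjusted p = 0.293).

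The 2 Rfx2 transcripts run over the minus strand of chromosome 17, Rfx2-202 (ENSMUST00000086801) from 56775897 to 56831013 and Rfx2-201 (ENSMUST00000002444) from 56775900 to 56831008. Rfx2-201 has 1 exon more. Rfx2-202 held 56.2%, 50.5% and 63.0% of the reads in P/D samples and 63.1%, 56.2% and 55.0% in RS samples. In P/D spermatocytes the tails of Rfx2-201 were longer than those of Rfx2-202 in each sample, by 23.5, 10.9 and 10.7 nt. In RS the difference was -8.30, 0.27 and -3.60 nt. Tails of Rfx2-202 lengthened by 66.7 nt and those of Rfx2-201 by 47.8 nt (adjusted p = 0.000569 and 0.000687). The inequality did not pass the test over all genes (adjusted p = 0.339).

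Sox30, an HMG-box factor needed for the haploid programme, rose in RS. It lies on the plus strand of chromosome 11, from 45980310 to 46017994, as 1 transcript (ENSMUST00000049038). Sox30 measured 46.1, 49.2 and 60.02 CPM in the P/D samples and 147, 113 and 166 CPM in RS, without overlap. The log2 fold change was 1.42 ± 0.26 (SE, adjusted p = 5.95e-06), a fold of 2.68. Its mean tails were 108, 124 and 121 nt and then 147, 143 and 155 nt. The difference was 30.4 ± 6.53 nt (SE, adjusted p = 0.00810) on 42 P/D and 146 RS reads.

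Sox5, another HMG-box factor, is known for a short testis form and for genes of motile cilia. Its reads rose from 6, 8 and 3 in P/D samples to 57, 84 and 70 in RS samples, or from 25.2, 26.2 and 11.3 CPM to 195, 194 and 215 CPM. This was a log2 fold change of 3.23 ± 0.29 (SE, adjusted p = 6.04e-13), a fold of 9.41. As for Fhl5, the rise was close to that of the RS markers, and the part of marker RNA in the P/D values was not tested.

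The tails of Sox5 were 120.01, 84.1 and 118 nt in the P/D samples and 125, 119.98 and 130.1 nt in RS. The RS tail of Sox5 was longer than that of only 14.3% of all genes. The difference of 17.7 ± 10.7 nt was not called (adjusted p = 0.209), on 17 P/D reads. Sox5 and Fhl5 thus rose by similar folds, with mean RS tails of 125 ± 5.05 nt and 172 ± 1.45 nt (SD, n = 3), and the difference between them was not tested.

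Sox5 had 4 transcripts with reads, all on the minus strand of chromosome 6. The short Sox5-204 (ENSMUST00000111748) runs from 143832835 to 143947106 and the long Sox5-201 (ENSMUST00000038815) from 143828425 to 144209480. Sox5-205 (ENSMUST00000111749, 143831615 to 144209558) and Sox5-214 (ENSMUST00000170367, 143828425 to 144209568) are long as well. The annotated coding sequences are 1176 bases for Sox5-204 and 2289 bases for Sox5-201. In RS, Sox5-204 held 50.9%, 32.1% and 30% of the Sox5 reads and Sox5-201 31.6%, 35.7% and 35.7%. Over the 3 RS samples they had 77 and 73 reads, and Sox5-205 and Sox5-214 had 31 and 30. Both Sox5-204 and Sox5-201 rose (6.92-fold and 12.6-fold, adjusted p = 5.76e-07 and 4.49e-08, edgeR), and usage was not called (adjusted p = 0.558). Tails of Sox5-201 were called longer by 45.7 nt (adjusted p = 0.0222) on 4 P/D reads, and it entered the test through RS alone. The call was lost with the replicate block (adjusted p = 0.0886), with weights by reads, with the adjusted equal-variance test and without RS sample 2 or 3. The tail differences of Sox5-204, Sox5-205 and Sox5-214 were not called.

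Tcfl5, a bHLH factor of spermatocytes that is needed for meiosis and for spermatid formation, was lower in RS. It measured 658, 714 and 671 CPM in the P/D samples and 475, 485 and 337 CPM in RS, without overlap. The log2 fold change was -0.65 ± 0.13 (SE, adjusted p = 2.35e-05), a fold of 0.64. Nearly all reads lay on Tcfl5-201 (ENSMUST00000037877, minus strand of chromosome 2, 180621956 to 180642708), and the second transcript, of a nonsense-mediated decay biotype, had 2 P/D and 8 RS reads.

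Tcfl5 tails were long in P/D spermatocytes, at 148, 149 and 146 nt, and 171, 157 and 174 nt in RS. The P/D tail was longer than that of 82.0% of all genes. The difference of 19.97 ± 6.25 nt was called (adjusted p = 0.0344), but not with the replicate block (adjusted p = 0.0769) nor without any 1 sample other than RS sample 2 (adjusted p of 0.0588 to 0.105). On Tcfl5-201 alone it was 19.8 nt (adjusted p = 0.0452, and 0.0981 with the block). Relative to all genes it moved by -23.0 nt (adjusted p = 0.0217, and 0.0690 with the block). That call was also lost with the mean over genes as the centre (-13.3 nt, adjusted p = 0.0956) and without RS sample 1 or 2. Reads with tails of 120 to 210 nt made up 51.0% ± 2.58 in the P/D samples and 62.5% ± 1.39 in RS (SD, n = 3).

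Mybl1, known as A-MYB and the master activator of pachytene genes, had the fewest RS reads of the 9 and was lower in RS. It lies on the minus strand of chromosome 1, from 9667415 to 9700209, as 1 transcript (ENSMUST00000088658). Its reads were 18, 14 and 9 in P/D samples and 3, 12 and 8 in RS samples, or 75.5, 45.9 and 33.8 CPM and then 10.3, 27.7 and 24.5 CPM. The groups did not overlap. The fall was -1.20 ± 0.38 in log2 (SE, adjusted p = 0.00569). The call was lost with DESeq2 (adjusted p = 0.0666) and without P/D sample 1 (-0.89, adjusted p = 0.0785).

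Tails of Mybl1 were 165, 153 and 151 nt in the P/D samples and 154, 107 and 143 nt in RS. They overlapped, and the difference of -21.3 ± 13.02 nt was not called (adjusted p = 0.214). Its P/D tail was longer than that of 87.3% of genes and its RS tail than that of 21.3%. Relative to all genes it moved by -64.2 ± 11.7 nt (adjusted p = 0.0105, and 0.0325 with the block), where Mybl1 entered the test through P/D spermatocytes alone. Mybl1 was the only regulator whose share of reads with tails of 120 to 210 nt was lower in every RS sample than in every P/D sample, at 50%, 57.1% and 55.6% and then 33.3%, 33.3% and 37.5%. This rested on 41 P/D and 23 RS reads and was lost with bounds of 120 and 180 nt. The share of all genes separated downward in this way was not counted.

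For 6 regulators (Crem, Gtf2a1l, Tbpl1, Rfx2, Sox30 and Tcfl5) every RS sample had a larger share of reads with tails of 120 to 210 nt than every P/D sample, and for Fhl5 and Sox5 the samples overlapped. Of 5037 genes, 62.5% had every RS sample above every P/D sample. In each of these 6, and in Mybl1 downward, the two-sided exact permutation test gave p = 0.1, the smallest it can give with 3 against 3 samples. At the level of transcripts, 10 of the 15 tested were higher in RS and 2 lower, against 32.6% and 30.8% of 6005 transcripts. Over all transcripts, edgeR called 1955 higher and 1848 lower of these 6005. DESeq2, run without that count filter, called 2563 higher and 1430 lower of 11467. Of 16 transcripts tested for tails, 10 were longer and 1 shorter, against 54.2% and 1.69% of 6990. Of the 15 transcripts, 5 passed the filter on counts through RS alone and 1 through P/D spermatocytes alone, and of the 16, 6 and 1 passed that on tails in this way.

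**Figure D5:**
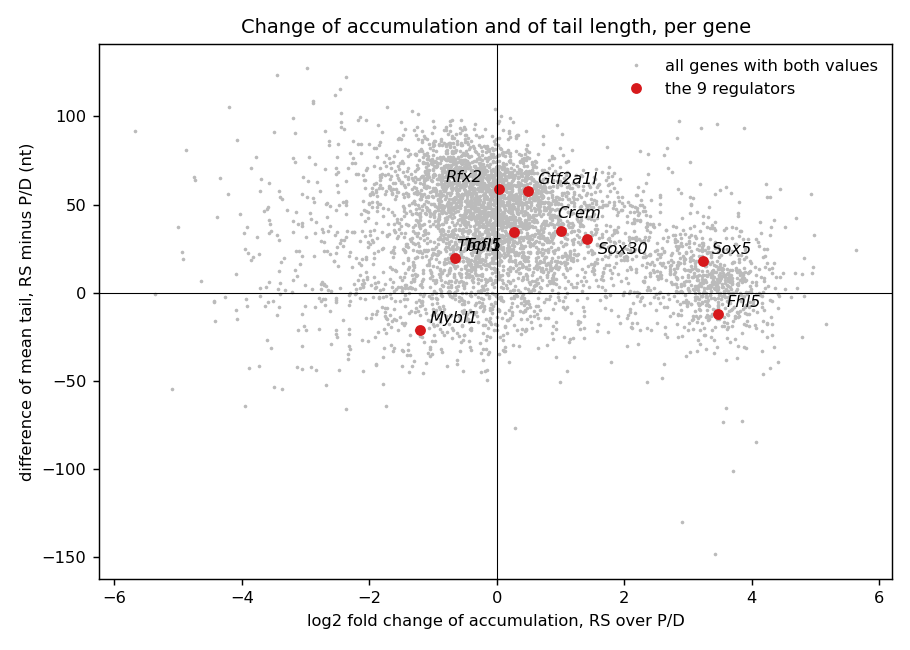
For each gene, the log2 fold change of accumulation, RS over P/D spermatocytes (x axis), against the difference of mean poly(A) tail in nt, RS minus P/D spermatocytes (y axis); grey points are all genes with both values and red points the 9 regulators. Fhl5 and Sox5 lie at the right among genes with small tail differences. Rfx2 and Gtf2a1l lie near 0 on the x axis, with differences of 58.6 and 57.5 nt. Of the regulators only Mybl1 lies at the lower left, where grey points lie as well.

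The tail differences of the regulators are set beside genes with like changes in amount. Among 564 genes with a log2 fold change of at least 3, as for Fhl5 and Sox5, the median tail was 158 nt in the P/D samples and 165 nt in RS, the median difference was 6.40 nt, and 8.69% were called longer. Among 2797 genes between -1 and 1, as for Rfx2, Gtf2a1l, Tbpl1 and Tcfl5, the medians were 108 and 157 nt, the median difference was 45.5 nt and 72.6% were called longer. Among 820 genes below -1, as for Mybl1, the median difference was 34.4 nt. Among 657 genes between 1 and 3, as for Crem and Sox30, it was 26.1 nt and 44.0% were called longer. The Fhl5 difference of -12.2 nt and the Mybl1 difference of -21.3 nt lay below 0, on the other side from the medians of their classes. Neither difference was called, and the share of each class that lay below 0 was not counted. Both measures come from the same reads, and no test was made of these classes.

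Partners and paralogs of the regulators were mostly higher in RS. Of 29 listed genes 15 had reads and 11 were tested, of which 8 rose and 2 fell (34.8% and 31.2% of all genes), with a median log2 fold change of 0.96 against 0.01 over all genes. The largest rises were those of Kif17, the kinesin that carries FHL5 out of the nucleus (3.70, adjusted p = 3.91e-12), Creb3l4, a CREB-like factor of the endoplasmic reticulum in spermatids (3.02, adjusted p = 1.46e-17), the RFX factor Rfx1 (2.83, adjusted p = 1.11e-07) and Foxj1, a forkhead activator of motile cilia genes (2.71, adjusted p = 1.54e-08), all in log2. The 2 that fell, named after their values were seen, were the general factor Gtf2b (-0.78, adjusted p = 0.000649) and the RFX factor Rfx4 (-1.13, adjusted p = 0.00422). Kif17, Rfx1 and Foxj1 had 10, 9 and 13 reads over the P/D samples. They passed the filters on low counts and on tails through RS alone, where they were high. Of 12 tested for tails, 4 were longer and 1 shorter, with a median of 16.3 nt (54.9% and 2.09% of all genes). The 1 shorter gene, also named after its values were seen, was Tbp, the TATA-binding protein, with 144 nt in the P/D samples and 106 nt in RS (adjusted p = 0.0279). Tails of Creb3l4, Kif17 and Rfx1 measured 140, 156 and 158 nt in P/D samples, and their differences of 28.3, 16.96 and 15.5 nt were not called (adjusted p = 0.0797, 0.0526 and 0.124).

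Spermatid genes linked to CREM were higher in RS. All 6 tested of 7 listed rose (34.8% of all genes), with a median log2 fold change of 3.76, beside 1.01 for Crem. These 6 are also the markers of elongating spermatids, so they are no separate evidence. Transition protein gene Tnp2 went from 279 ± 104 to 4328 ± 377 CPM, and protamine gene Prm1 from 633 ± 54.9 to 8953 ± 1283 CPM (SD, n = 3). Tnp1 rose by 3.79 and Prm2 by 3.73 in log2. Only Prm2 was called longer in tail, from 137 to 155 nt (limma, adjusted p = 0.0234), and the median difference of the 6 was 4.98 nt. Of all genes 54.9% were called longer, and 8.69% of those with a log2 fold change of at least 3, as these 6 had.

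Cilium and flagellum genes, of which many are targets of RFX factors, lengthened their tails, as Rfx2 did. All 11 tested were longer in RS, where 54.9% of all genes were, with a median difference of 55.9 nt beside 34.9 nt over all genes. All but Ift20 had log2 fold changes between -1 and 1, as Rfx2 had. In that class 72.6% of genes were called longer and the median difference was 45.5 nt. In amount 2 rose, 4 fell and 5 were not called (34.8% and 31.2% of all genes rose and fell). The intraflagellar transport genes Ift20, Ift140 and Ift27 fell, with log2 fold changes of -1.88, -0.99 and -0.86 (adjusted p = 3.83e-10, 1.16e-07 and 0.00259), while Ift57 rose by 0.90 (adjusted p = 0.00307). Tails of Ift27 went from 84.7 ± 8.11 to 150.1 ± 6.80 nt (SD, n = 3).

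Genes of the piRNA pathway, of which several depend on MYBL1, fell mostly. Of 9 tested, 6 fell, 1 rose and 2 were not called (31.2% and 34.8% of all genes fell and rose), with a median log2 fold change of -1.25. Piwil1, the PIWI protein of pachytene piRNAs, fell from 441 ± 36.1 to 29.3 ± 1.77 CPM, and it is also among the P/D markers. Pld6, a mitochondrial factor of piRNA making, fell from 257 ± 37.9 to 28.2 ± 10.2 CPM (SD, n = 3). Tdrd1 and Piwil2 changed by -2.56 and -2.52 in log2 and were called lower. Piwil1, Pld6, Tdrd1 and Piwil2 had 31, 31, 31 and 21 reads over the RS samples. All of them passed the filter on low counts through P/D spermatocytes alone, where they were high. Piwil2 also entered the tail test below through its P/D reads alone. Of 9 tested for tails, 5 were longer and 2 shorter (54.9% and 2.09% of all genes). The shorter were Piwil1 (160 to 117 nt, adjusted p = 0.00324) and Pld6 (142 to 121 nt, adjusted p = 0.0445), while Piwil2 lengthened from 119 to 166 nt (adjusted p = 0.00267). The gene that rose, named after its values were seen, was the helicase gene Ddx4 (0.46 in log2, adjusted p = 0.00199).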

How the data were processed

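Direct RNA libraries (SQK-RNA002, R9 flow cells) of 3 P/D and 3 RS samples were made and processed by the authors. Reads were basecalled with Guppy, demultiplexed with Deeplexicon, aligned with minimap2 to GENCODE vM17 transcripts of GRCm38, and tails were estimated with Nanopolish and filtered on its flag. The submitters' processing notes name minimap2 2.20-r1061 and mm10. The authors deposited raw counts per contig, without normalization, and the other measurement, the tail in nt of each read. Counts equalled the reads of the tail table for 12114 of 12114 contigs.

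Counts were tested with edgeR 4.0.16 (filterByExpr, TMM, quasi-likelihood test) and mean tails per sample with limma 3.58.1, in R 4.3.3, with Benjamini-Hochberg adjustment over all features at 0.05. The tail test took features with at least 10 reads in 2 or more samples of P/D spermatocytes or of RS, and with a mean in 2 or more of each. Isoforms were tested with diffSpliceDGE and diffSplice, and tail classes with an exact permutation test. All tests across genes were tested on simulated data. Symbols, coordinates and ends came from GENCODE vM21, also on GRCm38. DESeq2 1.42.0 was an alternative.

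The members and gene lists were chosen with earlier results of these data known. All members were named, and up to 4 genes of each further list, those with the largest absolute log2 fold change among those called. The samples share replicate numbers, and the study took both germ cell types from the same animals, but no source used here says that a number marks a shared pool. Deviations of same-numbered samples correlated over 1858 genes at 0.07, 0.26 and 0.07 for counts (log2) and at 0.00, 0.11 and -0.00 for tails, so the fit without the block is the main one. Each sample is a pool, and p-values measure the spread between pools only. The depth of 244004 to 474688 reads a sample left few P/D reads for Fhl5 and Sox5, and few reads of either cell type for Mybl1.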

Additional observations from a re-analysis of the deposited data

How the results depend on the processing

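Gene accumulation calls numbered 8 of 9, and 7 with DESeq2, 6 with upper-quartile scaling and 5 under a minimum of 10 counts a sample, a filter that left out Fhl5, Sox5 and Mybl1. Transcript calls went from 12 to 7 under that filter, and isoform usage from 1 to 0, since Crem-222 was no longer tested. Calls relative to all genes went from 3 to 7 with the median over reads as the centre. Calls of unequal isoform tail change (1, Crem-222) numbered 0 with at least 10 reads in both cell types and 2 with the median tail. Leaving out 1 sample gave 7 to 8 gene accumulation calls, 10 to 12 for transcripts, 5 to 6 gene tail calls, 7 to 10 transcript tail calls (main 11), 2 to 4 relative calls, 0 to 1 for isoform tails, 1 for usage, and 6 to 7 for tail classes. With the replicate block, accumulation calls stayed at 8 and 12, gene tail calls went from 6 to 5, transcript tail calls from 11 to 8, relative calls from 3 to 2 and isoform tail calls from 1 to 0; the blocked values of the lost calls stand beside the results, and the block moved no called value across 0.

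Directions turned in values that were not called, apart from Tbpl1. With upper-quartile scaling the log2 fold change was -0.0018 for Tbpl1 (called 0.27), -0.0062 for Tbpl1-201, -0.23 for Rfx2 and -0.12 for Rfx2-202; without the count filter Rfx2 was -0.012 and Rfx2-202 -0.033, and with the minimum of 10 counts Rfx2-201 was 0.12. Leaving out 1 sample gave -0.11 to 0.12 for Rfx2, -0.066 to 0.14 for Rfx2-202 and -0.23 to 0.15 for Rfx2-201. The Fhl5-201 tail was 0.0059 on the log2 scale and 30.4 nt for tails of 10 to 300 nt, which left 1 of its 2 reads in P/D sample 1. Relative to all genes, Crem and Tbpl1 were 1.98 and 0.93 nt with the mean as the centre, and Gtf2a1l and Rfx2 -8.32 and -7.19 nt with the median over reads. The tail change of Crem-228 relative to its gene was -10.1 nt with at least 10 reads in both cell types and ran from -10.8 to 31.0 nt over samples left out, below 0 without P/D sample 1 or 2, when Crem-222 was not tested. Of the single values under alternatives, 654 kept their direction and their side of the threshold. Of the others, 51 lost a call, 13 gained one and 24 changed sign.

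Depth limits Fhl5 and Sox5, with 18 and 17 P/D reads, and Mybl1, with 41 P/D and 23 RS reads. With the same number of reads in every sample, chosen after seeing the data, these 3 genes were not tested and the other 6 were called, as before.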
